A study of Mus musculus with 6 samples.

Results

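The Slit ligands, their Robo receptors and the srGAPs were followed as 10 genes: *Slit1*, *Slit2* and *Slit3*, *Robo1* to *Robo4*, and *Srgap1*, *Srgap2* and *Srgap3*. They were taken by gene symbol from a table of 18537 known-gene clusters, in which 9 of the 10 had a row. *Robo4* was not analysed here. The study asked how loss of *Robo1* alters mammary luminal progenitors (LPs), the sorted luminal cells from which milk-producing alveolar cells arise. Poly(A)+ RNA was sequenced from 3 *Robo1+/+* and 3 *Robo1−/−* samples, each pooled from 2 adult nulliparous mice. The mice were littermates from crosses of heterozygotes carrying the *Robo1 tm1Matl* allele, and their strain background is not given in the sources used here. LPs were sorted as Lin−CD24loCD29+CD61+ cells, and no other cell population is analysed here.

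Slits are large secreted proteins that bind the first immunoglobulin domain of Robo receptors, single-pass proteins with no enzyme activity of their own. The receptor tail recruits adaptors, among them the srGAPs, whose GAP domain switches off small GTPases and whose F-BAR domain bends membranes. First known from axon guidance, the pathway also acts in the mammary gland, where it shapes ductal branching and adhesion between the basal and luminal layers.

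The deposited values are read counts per gene divided by 1 size factor per library, here called normalised read counts. Dividing them by the value of 1 read in each library returned whole reads, which came to 10494297 for gh03, 17433868 for gh09 and 14298652 for gh15, the *Robo1+/+* replicates. The *Robo1−/−* replicates came to 12183461 (gh06), 15185303 (gh12) and 9727191 (gh18). At these depths 3 reads, taken as the smallest number detected, corresponded to a normalised count between 2.35 in gh09 and 4.38 in gh18. Genotypes were compared with limma on log2(normalised count + 1), so that fold changes of genes with few reads are understated. Of the 9 genes with a row, 7 passed the filter on low reads, and *Slit1* and *Robo3* fell under it. Each library pools different animals, but p-values measure only the spread between these 6 samples.

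The targeted gene was examined first, since it checks the genotype labels. *Robo1* (kgCluster9753) lies on the forward strand at chr16:72663394-73046340 of NCBI37/mm9. The *Robo1+/+* libraries held 227, 732 and 577 *Robo1* reads in gh03, gh09 and gh15, or normalised counts of 289, 574 and 541. The *Robo1−/−* libraries held 113, 234 and 121 reads in gh06, gh12 and gh18, or normalised counts of 130, 214 and 177. All 3 *Robo1−/−* libraries thus lay below all 3 *Robo1+/+* libraries, and gh03 was the lowest of the *Robo1+/+* group. Mean *Robo1* was 468 ± 156 (SD, n = 3) where the gene was intact and 174 ± 42.2 (SD, n = 3) for *Robo1−/−* LPs, so that 37.1% was left. On the log2 scale this was a fold change of −1.39 (95% confidence interval −2.24 to −0.54, adjusted p = 0.86 by limma with Benjamini-Hochberg adjustment over 13692 genes). An exact two-sided permutation test of the 6 values gave p = 0.1, the smallest that 3 libraries against 3 allow. The part of the gene that the allele removes is not given in the sources used here, and counts per gene do not show where along *Robo1* the remaining reads lie. In sorted populations, fewer cells that express a gene and less RNA per cell cannot be told apart.

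*Robo1* was the only one of the 7 tested genes with an unadjusted limma p-value under 0.05, and it was lower in *Robo1−/−*. Among all 13692 tested genes, 0.92% were lower by that rule. None of the 7 was higher, where 0.767% of all tested genes were. At an adjusted p under 0.05, limma called 0 of the 7 and 0% of all tested genes, and DESeq2 and edgeR on the recovered reads also called 0 of the 7. *Robo1* was also the only one of the 7 whose genotypes did not overlap with all values lower, a pattern that 4.58% of all tested genes showed. None of the 7 had all *Robo1−/−* values above all *Robo1+/+* values, as 4.83% of all tested genes did.

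The values of the libraries followed the GC content of the transcripts to different degrees. Across 12520 tested genes with a known transcript, the log2 deviation of a library from the mean of the others correlated with GC content with a Spearman coefficient of −0.81 in *Robo1−/−* replicate gh18. In the other 5 libraries the coefficient lay between 0.17 in gh12 and 0.61 in gh09, and genes are not independent replicates. For each of these 5 the mean of the others includes gh18. A GC trend of their own therefore cannot be told apart from that of gh18. Fold changes after subtraction of a GC trend from each library are given beside several of those from the deposited values. For *Robo1*, whose longest coding transcript has 49.5% GC, the corrected log2 fold change was −1.42.

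The ligands were scarce. *Slit1* (kgCluster12823) was represented by 1 read or none in each library, namely 0, 1 and 1 reads in *Robo1+/+* gh03, gh09 and gh15, against 0, 1 and 1 in *Robo1−/−* gh06, gh12 and gh18. It was therefore at or under the limit of 3 reads in all 6 libraries, and no fold change is given. *Slit2* (kgCluster18904), the ligand with the most reads, had normalised counts of 20.4, 32.9 and 76.0 in *Robo1+/+* gh03, gh09 and gh15. It had 29.9, 135.6 and 58.4 in *Robo1−/−* gh06, gh12 and gh18. The genotypes overlapped, with the highest value in *Robo1−/−* gh12 and the lowest in *Robo1+/+* gh03, a ratio of 6.66. Mean *Slit2* was 43.1 ± 29.2 (SD, n = 3) for *Robo1+/+* LPs and 74.6 ± 54.7 (SD, n = 3) for *Robo1−/−* LPs. Its log2 fold change of 0.72 had a 95% confidence interval of −0.91 to 2.35 (adjusted p = 0.86 by limma; exact permutation p = 0.5). With a library left out it lay between 0.17 (without gh12) and 1.24 (without gh06). A difference in either direction was not detectable at this spread.

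*Slit3* (kgCluster3119) was the scarcer of the tested ligands, with 14, 15 and 5 reads in *Robo1+/+* gh03, gh09 and gh15, against 6, 12 and 1 in *Robo1−/−* gh06, gh12 and gh18. Normalised, this gave 17.8, 11.8 and 4.69 for the *Robo1+/+* and 6.91, 10.99 and 1.46 for the *Robo1−/−* libraries. The lowest value, that of gh18, rested on 1 read, and the remaining *Robo1−/−* values lay within the *Robo1+/+* range. On the log2 scale the fold change was −0.85 (95% confidence interval −2.63 to 0.93, adjusted p = 0.86 by limma; exact permutation p = 0.4). It was −0.31 after the GC correction and, with a library left out, between −1.33 (without gh15) and −0.19 (without gh18). The transcript of *Slit3* has 56.8% GC.

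*Slit2* reads made up a varying share of the reads of the 3 ligands. The lowest share was 53.3% in *Robo1+/+* gh03 (16 of 30 reads, 95% Clopper-Pearson interval 34.3% to 71.7%) and the highest 95.2% in *Robo1−/−* gh18 (40 of 42 reads, 83.8% to 99.4%). Such intervals describe the counting error alone, because amplified reads that carry no molecular identifier can stem from 1 molecule. By genotype the share averaged 73.0% ± 19.9 (SD, n = 3) for *Robo1+/+* and 89.5% ± 7.31 (SD, n = 3) for *Robo1−/−*, and the genotypes overlapped.

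Among the receptors, *Robo1* predominated in both genotypes. *Robo2* (kgCluster9756), the receptor closest to *Robo1* in sequence, lies on the reverse strand at chr16:73892551-74412070, so that the 3′ ends of both genes face each other across 846 kb. It had 8, 48 and 6 reads in *Robo1+/+* gh03, gh09 and gh15, against 4, 14 and 10 in *Robo1−/−* gh06, gh12 and gh18. Normalised, these reads gave 10.2, 37.6 and 5.63 for the *Robo1+/+* and 4.60, 12.8 and 14.6 for the *Robo1−/−* libraries. One *Robo1+/+* library, gh09, stood above the other 5, which overlapped between the genotypes. *Robo2* had a log2 fold change of −0.42 (95% confidence interval −2.23 to 1.39, adjusted p = 0.89 by limma; exact permutation p = 0.8). It was −0.68 after the GC correction, −0.75 in DESeq2 and −0.77 in edgeR. It changed sign without gh09, to 0.31, and without *Robo1−/−* gh06, to 0.05, and was −0.96 without gh15.

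*Robo3* (kgCluster26030), a divergent receptor best known from axons that cross the midline, had 0, 1 and 1 reads in *Robo1+/+* gh03, gh09 and gh15 and 0 in each *Robo1−/−* library. In the *Robo1−/−* libraries, 3 reads would have been a level of 0.583 to 0.929 normalised reads per kilobase. *Robo3* at that level would have given 3 reads on average, and could have given fewer by counting error alone. *Robo3* and *Robo4*, the receptor of endothelial cells, are neighbours on chromosome 9, where their 3′ ends face each other across 1645 bases.

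The receptors other than *Robo1* were added up to ask whether they made up for it. Divided by the length of the longest coding transcript, *Robo2* and *Robo3* together gave 1.25, 4.80 and 0.892 normalised reads per kilobase in *Robo1+/+* gh03, gh09 and gh15. They gave 0.566, 1.58 and 1.80 in *Robo1−/−* gh06, gh12 and gh18. The genotypes overlapped, with means of 2.31 ± 2.16 (SD, n = 3) for *Robo1+/+* and 1.31 ± 0.656 (SD, n = 3) for *Robo1−/−*. The direction rested on gh09, without which the *Robo1+/+* mean was 1.07, under that of *Robo1−/−*. The *Robo1* level itself was 61.9 ± 20.6 (SD, n = 3) normalised reads per kilobase in *Robo1+/+* and 23.0 ± 5.58 (SD, n = 3) for *Robo1−/−*, a difference of −38.9. In *Robo1−/−* gh18, where the other receptors were highest within that genotype, their level of 1.80 was set against a *Robo1* level of 23.3. The level of all 3 receptors together in *Robo1−/−* was 37.8% of that in *Robo1+/+*, close to the 37.1% of *Robo1* alone.

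*Robo1* accordingly contributed most receptor reads in each library. Its share lay between 93.7% in gh09 (732 of 781 reads, 95% Clopper-Pearson interval 91.8% to 95.3%) and 98.8% in gh15 (577 of 584, 97.5% to 99.5%) in *Robo1+/+*. In *Robo1−/−* it lay between 92.4% in gh18 (121 of 131, 86.4% to 96.3%) and 96.6% in gh06 (113 of 117, 91.5% to 99.1%). The ranges of the genotypes overlapped, so that the reads left in *Robo1−/−* LPs were still mostly those of *Robo1*.

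**Figure D1:**
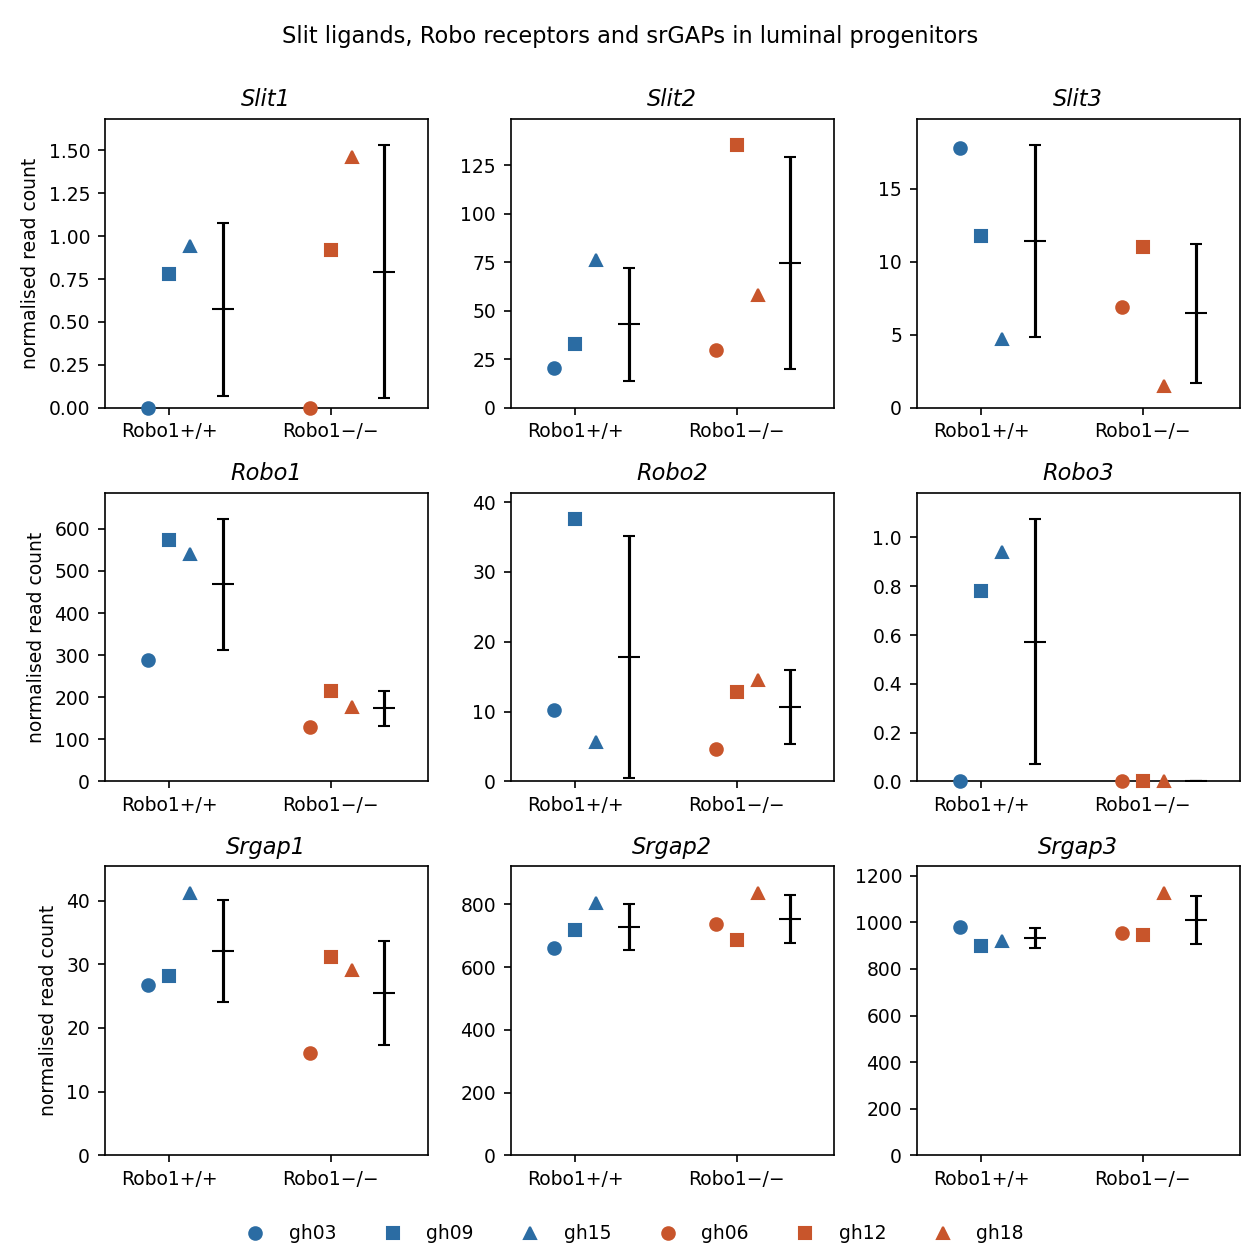
Normalised read count (vertical axes, each from 0) of each Slit ligand, Robo receptor and srGAP in the 3 *Robo1+/+* (blue) and 3 *Robo1−/−* (orange) libraries, with the mean and SD of each genotype in black. The genotypes are separate for *Robo1* (289 to 574 against 130 to 214) and overlap for the other 8 genes, of which *Slit1* and *Robo3* rest on 1 read or none per library.

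The srGAPs, which bind the receptor tail, were the most abundant family, with a summed level of 199.8 ± 8.06 (SD, n = 3) normalised reads per kilobase for *Robo1+/+* and 210.7 ± 21.1 (SD, n = 3) for *Robo1−/−* LPs. *Srgap3* (kgCluster21147, chr6:112667965-112897260), a GAP for Rac1 also known as WRP, had normalised counts of 981, 900 and 919 in *Robo1+/+* gh03, gh09 and gh15, against 956, 946 and 1128 in *Robo1−/−* gh06, gh12 and gh18. Of the *Robo1−/−* values, that of gh18 lay above the *Robo1+/+* range and the others within it. The log2 fold change was 0.11 with a 95% confidence interval of −0.35 to 0.57, which spans 0.787 to 1.48 times the *Robo1+/+* level (adjusted p = 0.89 by limma; exact permutation p = 0.3). Without gh18 it was 0.03.

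*Srgap2* (kgCluster829, chr1:133181828-133423938), a GAP that acts on Rac1 and in filopodia and neurite outgrowth, had 660, 719 and 806 in *Robo1+/+* gh03, gh09 and gh15. In *Robo1−/−* gh06, gh12 and gh18 it had 737, 686 and 838. The libraries of both genotypes were interleaved. The log2 fold change was 0.05 with a 95% confidence interval of −0.44 to 0.54, or 0.738 to 1.45 times (adjusted p = 0.95 by limma; exact permutation p = 0.7). Its sign changed with the GC correction, to −0.02, without *Robo1+/+* gh03, to −0.02, and without *Robo1−/−* gh18, to −0.03, and it was 0.12 without gh15.

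*Srgap1* (kgCluster2678, chr10:121218047-121484371), which acts mainly on Cdc42, was scarce beside its paralogs. It had 26.7, 28.2 and 41.3 in *Robo1+/+* gh03, gh09 and gh15, against 16.1, 31.2 and 29.2 in *Robo1−/−* gh06, gh12 and gh18. The lowest value was that of *Robo1−/−* gh06 and the highest that of *Robo1+/+* gh15, with the other 4 close together. On the log2 scale the fold change was −0.35 (95% confidence interval −1.34 to 0.64, adjusted p = 0.86 by limma; exact permutation p = 0.6). It shrank to −0.06 without gh06 and to −0.16 without gh15.

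*Srgap3* supplied between 52.0% and 58.8% of the reads of the 3 srGAPs, *Srgap2* between 39.6% and 45.6%, and *Srgap1* between 0.943% and 2.34% over the 6 libraries. The *Srgap3* share averaged 55.2% ± 3.41 (SD, n = 3) for *Robo1+/+* and 56.5% ± 0.468 (SD, n = 3) for *Robo1−/−*, a difference smaller than the spread between the *Robo1+/+* libraries. In *Robo1+/+*, the SD between libraries was 4.54% of the mean for *Srgap3*, 10.1% for *Srgap2* and 25.0% for *Srgap1*, against 33.3% for *Robo1*, 67.7% for *Slit2* and 97.2% for *Robo2*. In *Robo1−/−*, *Srgap1* (32.1%) varied more than *Robo1* (24.3%).

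Levels of different genes were compared as normalised reads per kilobase of the longest coding transcript. In *Robo1+/+* LPs the order was *Srgap3* at 105.0 ± 4.77 (SD, n = 3), *Srgap2* at 90.6 ± 9.11, *Robo1* at 61.9 ± 20.6 and *Slit2* at 5.35 ± 3.62. *Srgap1* at 4.16 ± 1.04, *Robo2* at 2.19 ± 2.13 and *Slit3* at 2.18 ± 1.26 followed. *Robo3* at 0.122 ± 0.107 and *Slit1* at 0.101 ± 0.0887 came last, on 1 read or none per library. The *Robo1* mean was 11.6-fold that of *Slit2* in *Robo1+/+*, and *Robo1* stood above *Slit2* in 6 of 6 libraries. *Slit2* and *Srgap1*, and *Robo2* and *Slit3*, overlapped as neighbours in the order within each genotype, and *Srgap1* and *Robo2* overlapped in *Robo1+/+* but not in *Robo1−/−*. *Srgap3* exceeded *Srgap2* in 6 of 6 libraries, but with the union of all exons as length the ranges of both genes overlapped within each genotype. By the means over that length, *Srgap1* stood above *Slit2* in *Robo1+/+* but below it in *Robo1−/−*, and *Slit3* stood above *Robo2* in both genotypes.

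By the longest coding transcript, the first 7 places of the order were the same in *Robo1−/−* LPs. There *Srgap3* stood at 113.7 ± 11.5 (SD, n = 3), *Srgap2* at 93.7 ± 9.59, *Robo1* at 23.0 ± 5.58 and *Slit2* at 9.27 ± 6.79 normalised reads per kilobase. Set among 12520 tested genes, 42.0% had a lower level than *Srgap3* in *Robo1+/+* LPs. The same share was 30.4% for *Robo1* and 3.75% for *Slit2* in *Robo1+/+*, and 15.8% for *Robo1* in *Robo1−/−*. All of these genes thus lay below the median tested gene, at 139.4 normalised reads per kilobase in *Robo1+/+*.

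**Figure D2:**
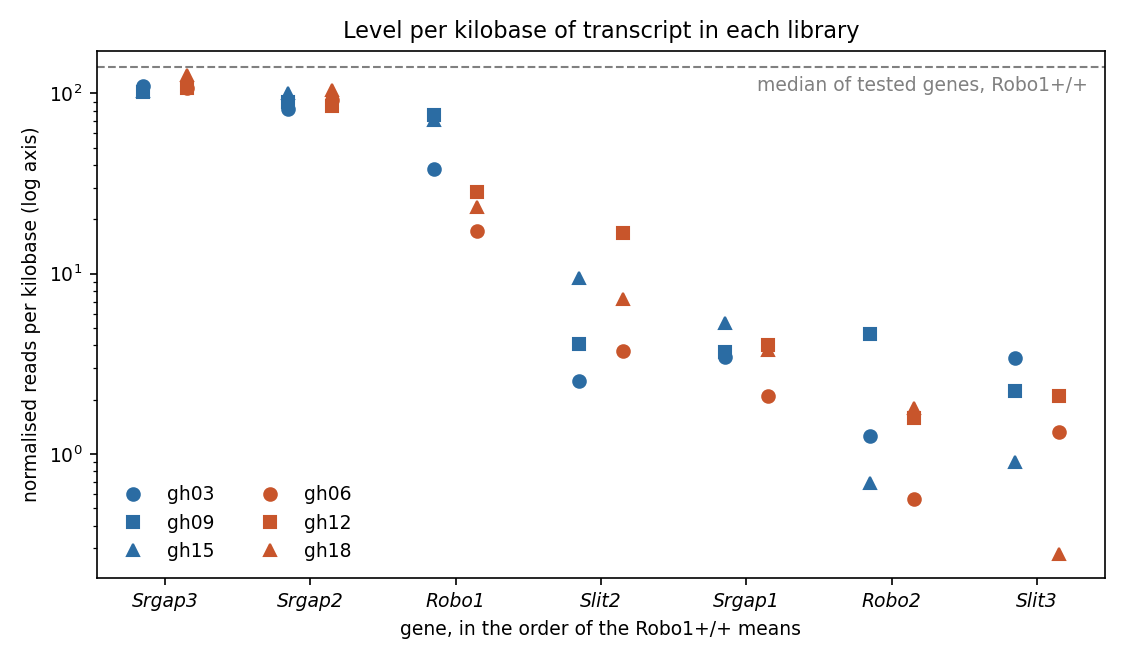
Normalised reads per kilobase of the longest coding transcript (vertical log axis) for the 7 tested genes in each *Robo1+/+* (blue) and *Robo1−/−* (orange) library, in the order of the *Robo1+/+* means. *Srgap3*, *Srgap2* and *Robo1* stand above *Slit2*, *Srgap1*, *Robo2* and *Slit3* in each library, and the dashed line marks the median of 12520 tested genes in *Robo1+/+* (139.4).

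The sorted cells were checked against marker genes of the populations a mammary sort could hold. Of 9 luminal progenitor markers, 9 were tested, and their summed normalised counts were 35142, 58095 and 51884 in *Robo1+/+* gh03, gh09 and gh15, against 61940, 75669 and 50205 in *Robo1−/−* gh06, gh12 and gh18. *Ltf* was the most abundant of them, and *Kit*, which marks these progenitors, ranged from 4209 to 5644. The 6 markers of all luminal cells, led by *Krt8*, summed to between 59611 in gh18 and 148006 in gh06. The 9 of hormone-sensing cells, led by *Prlr*, summed to 46691, 59297 and 50377 in *Robo1+/+* gh03, gh09 and gh15, and in *Robo1−/−* gh06, gh12 and gh18 to 73746, 61987 and 64851. All 3 *Robo1−/−* sums thus lay above all 3 *Robo1+/+* sums. These sums rested most on *Prlr* and *Areg* (mean counts of 28835 and 13353), each of which overlapped between genotypes. Only *Pgr* of this list had all *Robo1−/−* values above all *Robo1+/+* values, as 4.83% of all tested genes did. The part of hormone-sensing cells in the levels of the 10 genes was not tested. In each of these 3 lists, of 9, 6 and 9 tested markers, 1 had an unadjusted limma p under 0.05, namely *Csn3*, *Cd24a* and *Pgr*. All 3 were higher in *Robo1−/−*, as 0.767% of all tested genes were by that rule; they are named after their values were seen. The median log2 fold changes of the 3 lists were 0.08, −0.40 and 0.22, with gh18 included and without the GC correction. Medians without gh18 are not given here. The other 5 markers of all luminal cells had log2 fold changes from −0.91 (*Krt19*) to −0.04 (*Epcam*). Each of these 5 was lowest in *Robo1−/−* gh18, where *Krt19* was at 2705, against 21690 in gh06 and 19645 in gh12. *Cited1* (−1.01) of the hormone-sensing list was also lowest in gh18. For *Tnfsf11* (−2.94) of that list, *Robo1+/+* gh03 was highest (1660) and *Robo1−/−* gh12 lowest (0.92). These markers all overlapped between genotypes, and none had an unadjusted limma p under 0.05.

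*Robo1* is strongly expressed in basal cells of the gland, so the basal list is set beside it. All 10 basal and myoepithelial markers were tested, with summed counts of 2548, 907 and 1564 in *Robo1+/+* gh03, gh09 and gh15, against 1864, 1080 and 1198 in *Robo1−/−* gh06, gh12 and gh18. The most abundant was *Oxtr* (149 to 512), and none was at 0. Over the 10 the median log2 fold change was 0.02. The keratins *Krt5*, *Krt14* and *Krt17*, named after their values were seen, had log2 fold changes of −1.12, −1.004 and −1.04 with overlap between genotypes, and the other 7 markers lay between −0.23 (*Tagln*) and 0.45 (*Oxtr*). The libraries of the genotypes overlapped in this sum, and gh09, with the most *Robo1*, had the lowest basal sum of the 6. No basal marker had an unadjusted p under 0.05; the part of basal cells in the *Robo1* difference was not tested.

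The sort removed lineage-positive cells by antibodies to markers of leukocytes, endothelium and erythroid cells. Of 10 endothelial markers, 9 had a row and 3 were tested. Their sums were 2246, 1557 and 649 in *Robo1+/+* gh03, gh09 and gh15, against 1157, 480 and 174 in *Robo1−/−* gh06, gh12 and gh18, most of it *Vwf* (140 to 2167). *Pecam1* and *Egfl7* were the other tested markers of the list. *Pecam1* ranged from 23.35 in gh18 to 89.77 in gh12, and *Egfl7* from 0 in gh18 to 34.49 in gh09. *Cdh5*, which defines endothelium, fell under the filter, at 0 in 4 libraries and at 1 read in gh06 and gh18. The 7 fibroblast markers, led by *Dcn*, summed to between 308 and 1042, and the 6 leukocyte markers with a row, led by *Csf1r*, to between 15.6 and 23.4. The erythroid list was led by *Alas2* (19.7 to 63.5), and the adipocyte list was represented by *Lpl* alone (54.1 to 369). *Emcn*, *Cd3e*, *Hba-a1*, *Adipoq*, *Plin1* and *Cidec* were not analysed here. The part of these populations in the levels of the Slits, Robos and srGAPs was not tested.

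Beyond ligand, receptor and srGAP, 49 genes with a known role around Robo signalling were examined, of which 46 were tested. At an adjusted p under 0.05 limma called 0 of them. At an unadjusted p under 0.05, 1 was higher and 0 were lower, where 0.767% and 0.92% of all tested genes were. Genotypes did not overlap for 5 lower and 3 higher of the 46, where 4.58% and 4.83% of all tested genes did. The median log2 fold change over the 46 was 0.10, against 0.00 over all tested genes, and 0.04 after the GC correction.

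The single gene was *Flrt3*, whose product is a membrane protein that binds Robo1 and tunes its signalling in thalamic axons. Its normalised counts were 481, 346 and 367 in *Robo1+/+* gh03, gh09 and gh15, against 718, 638 and 1078 in *Robo1−/−* gh06, gh12 and gh18. All 3 *Robo1−/−* libraries lay above all 3 *Robo1+/+* libraries. The log2 fold change was 1.00 (95% confidence interval 0.34 to 1.67, adjusted p = 0.86 by limma; exact permutation p = 0.1) and 0.72 after the GC correction.

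Of the 9 tested ligands and co-receptors, 7 had a log2 fold change below 0, with a median of −0.41 that became −0.06 after the GC correction. The syndecans *Sdc4* and *Sdc1*, heparan sulphate carriers on which Slit binding depends, had the highest counts of this role, with log2 fold changes of −0.02 and −0.56. These were −0.05 and −0.16 after the correction, and 0.31 and −0.08 without gh18. The 8 genes of Robo trafficking and cleavage had a median of 0.27, and 0.07 after the correction. Among them *Nedd4*, a ubiquitin ligase, had 14977 ± 1081 (SD, n = 3) for *Robo1+/+* and 19139 ± 3748 (SD, n = 3) for *Robo1−/−*, with no overlap between genotypes. *Adam10*, the protease whose fly counterpart cleaves Robo, had 7858 ± 531 (SD, n = 3) and 10676 ± 2087 (SD, n = 3), with overlap. Their corrected log2 fold changes were 0.13 each, from 0.34 and 0.42, and they were 0.18 and 0.31 without gh18.

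The 17 adaptors and actin regulators had a median log2 fold change of 0.11. The most abundant, *Cap1* and *Pak2*, stood at 0.10 and 0.33, and at 0.14 and 0.08 after the correction. *Rac1* and *Cdc42*, GTPases on which srGAPs act, stood at 0.17 and 0.30, and at 0.05 and 0.02 after the correction. The last role holds a cadherin and a catenin with *Gsk3b*, *Akt1* and *Cdkn2a*, 5 tested genes with a median of −0.03, and 0.04 after the correction. *Akt1*, named after its values were seen, had all *Robo1−/−* values below all *Robo1+/+* values, with a log2 fold change of −1.02 (adjusted p = 0.86 by limma) that became −0.21 after the correction and −0.23 without gh18. *Cdh1* (E-cadherin) had 18072 ± 3668 (SD, n = 3) for *Robo1+/+* and 17823 ± 1572 (SD, n = 3) for *Robo1−/−*. *Ctnnb1* (β-catenin), whose activity Robo1 is known to restrain in mammary basal cells, had 12834 ± 227 (SD, n = 3) and 12583 ± 863 (SD, n = 3). Read counts do not measure that activity. The difference of *Cdh1* was smaller than the SD of either genotype. That of *Ctnnb1* was smaller than the SD of the *Robo1−/−* libraries but not that of the *Robo1+/+* libraries.

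**Figure D3:**
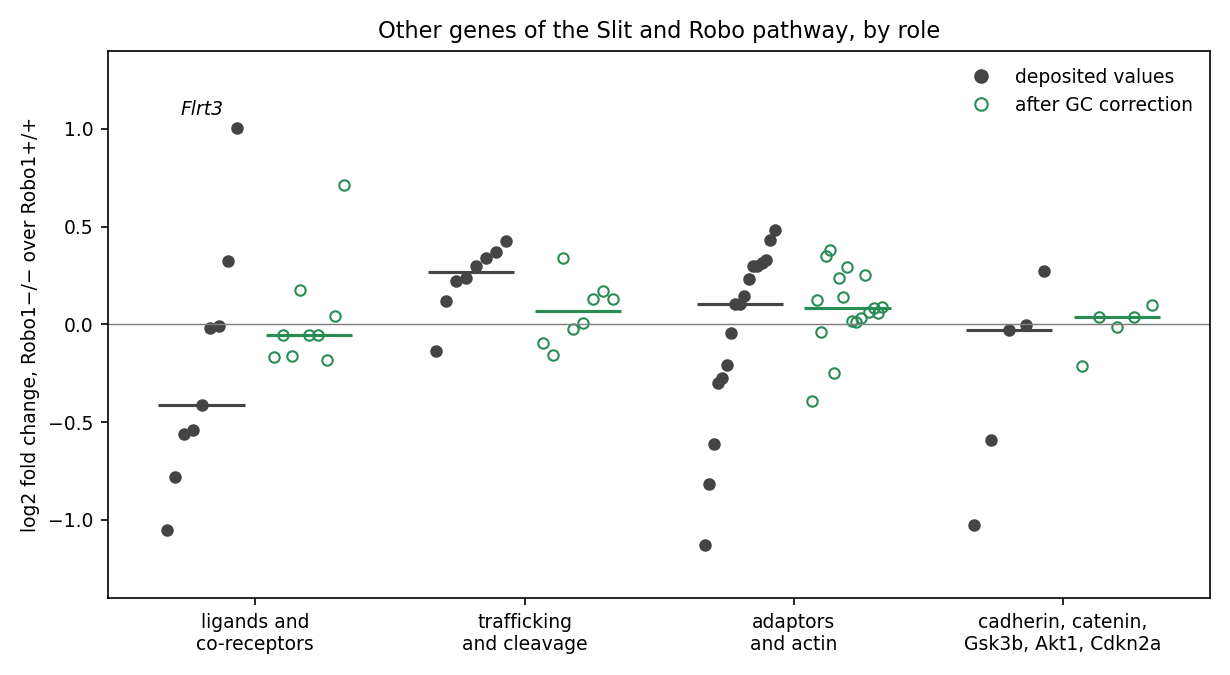
Log2 fold change, *Robo1−/−* over *Robo1+/+*, of the tested pathway genes in 4 of the 5 roles, from the deposited values (filled points) and after the GC correction (open points), with lines at the medians. *Flrt3* (1.00) is the only gene with an unadjusted limma p under 0.05, and the median of the ligands and co-receptors moves from −0.41 to −0.06 with the correction.

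The genes whose log2 counts most resembled *Robo1* over the 6 libraries were sought among 10260 genes with a mean count of at least 100. They were *Elovl1* (Pearson's r = 0.98), *Ano9* (0.96), *Hspb8* (0.96), *Abcb6* (0.95) and *Dusp14* (0.94). These r values are descriptions over the same 6 libraries of 2 genotypes, so that any gene lower in *Robo1−/−* tends to score highly. None of the 5 lies on chromosome 16. *Hspb8*, a small heat shock protein, had 463, 1057 and 576 in *Robo1+/+* gh03, gh09 and gh15, against 143, 300 and 220 in *Robo1−/−* gh06, gh12 and gh18, and like *Robo1* was highest in gh09 and lowest in gh06.

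A targeted allele is inherited with its flanking chromosome, so the genes within 5 Mb of *Robo1*, chosen after the values were seen, were also read. Besides *Robo1*, 6 clusters lay in this window, *Gbe1*, *Robo2*, *Rbm11*, *Hspa13*, *Nrip1* and *Usp25*, and all 6 were tested. None had an unadjusted p under 0.05 or separate genotypes, and their log2 fold changes ranged from −0.42 (*Robo2*) to 1.07 (*Rbm11*).

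Within each family the proteins, translated from the coding sequences of GENCODE mouse release M1, differ in how alike they are. Robo1 (1612 residues) shares 56.5% of aligned residues with Robo2 (1508), 45.5% with Robo3 (1402) and 35.3% with Robo4 (1074). The 3 Slits, of 1531, 1542 and 1523 residues, share between 60.4% and 67.0%. The srGAPs share between 61.4% (Srgap2 and Srgap3) and 70.5% (Srgap1 and Srgap3). These likenesses did not carry over to reads: of the 75-base sequences of each gene's coding transcripts, none occurred in transcripts of other genes, except 8 of 8813 (0.0908%) for *Srgap3*. Noncoding transcripts and a pseudogene are annotated within *Slit2* and *Slit3*, on both strands. Whether these overlap exons of the hosts was not tested, and whether the counting used strand is not given in the sources used here. The part of their reads in the counts of *Slit2* and *Slit3* is therefore not known.

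*Slit2* and *Slit3* also host the genes of miR-218, a microRNA whose mature 5p arm is the same from both loci. *Mir218-1* lies at chr5:48615181-48615290 and *Mir218-2* at chr11:35430318-35430427 of NCBI37/mm9, both on the strand of the host and outside its annotated exons. The 5p sequence, from RefSeq (GRCm38.p6), is shown with its seed, bases 2 to 8, in capitals.
miR-218-5p: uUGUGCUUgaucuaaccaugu
The microRNA itself was not measured in poly(A)+ RNA, and the host transcripts had 353 (*Slit2*) and 53 (*Slit3*) reads over the 6 libraries.

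The complement of the seed, AAGCACA, occurs in the longest annotated 3′ UTR of *Robo1*, *Robo3*, *Srgap2* and *Srgap3* (1 site each) and *Robo2* (2 sites). The longest 3′ UTRs of the 3 Slits, *Srgap1* and *Robo4* hold none. Over all 20007 coding genes with an annotated 3′ UTR, 12.5% hold it, and a longer UTR has more positions at which it can occur. The sites are shown on the strand of the gene, with the seed match in capitals, for the receptors and srGAPs with the most reads. They lie at chr16:73045579-73045606 (*Robo1*), chr16:73895597-73895624 (the first of *Robo2*), chr1:133183092-133183119 (*Srgap2*) and chr6:112670228-112670255 (*Srgap3*) of NCBI37/mm9.
Robo1: ttttttggttttaaAAGCACAatcacta
Robo2: ttttatttggtgatAAGCACAaatctct
Srgap2: ttgggaaaaatccaAAGCACAacttcaa
Srgap3: attcacatttagggAAGCACAcacacag
A match of 7 letters is a description and does not show that the site is used. *Robo1*, *Srgap2* and *Srgap3*, the genes with the 3 highest levels per kilobase, each hold 1.

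Promoter windows of 300 bases were found in RefSeq (GRCm38.p6) for 9 of the 10 genes, *Slit1* being the other. CpG dinucleotides, often dense at promoters of broadly expressed genes, did not follow the order of the levels. The windows of *Slit3* and *Srgap1*, both with few reads, held 41 and 37, against 10 for *Srgap3* and 15 for *Robo1*, where the median of all 32851 windows was 7. *Slit2* had 30, *Srgap2* and *Robo3* 17 each, and *Robo4* 2. *Robo2* had several windows, with 17, 5 and 9. Those with 5 and 9 match NCBI37/mm9 at chr16:75092966-75093265 and chr16:75447489-75447788, outside the GENCODE span of *Robo2* given above. The windows of the scarcest tested ligand, the receptor and the most abundant srGAP are shown on the strand of the gene with each CpG in capitals. Their exact matches in NCBI37/mm9 lie at chr11:34934708-34935007 (*Slit3*, forward), chr16:72663144-72663443 (*Robo1*, forward) and chr6:112897211-112897510 (*Srgap3*, reverse).
Slit3: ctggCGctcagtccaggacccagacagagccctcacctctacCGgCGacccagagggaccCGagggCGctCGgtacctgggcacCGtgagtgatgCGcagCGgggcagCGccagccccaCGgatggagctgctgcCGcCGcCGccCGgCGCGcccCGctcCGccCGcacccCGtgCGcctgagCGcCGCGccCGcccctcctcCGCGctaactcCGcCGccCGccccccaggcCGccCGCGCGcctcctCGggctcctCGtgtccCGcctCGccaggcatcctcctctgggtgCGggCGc
Robo1: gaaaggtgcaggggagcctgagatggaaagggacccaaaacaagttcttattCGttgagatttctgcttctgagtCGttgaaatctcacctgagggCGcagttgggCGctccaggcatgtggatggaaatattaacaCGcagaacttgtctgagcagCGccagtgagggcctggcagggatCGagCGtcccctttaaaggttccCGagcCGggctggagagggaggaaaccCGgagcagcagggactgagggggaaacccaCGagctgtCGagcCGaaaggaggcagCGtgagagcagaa
Srgap3: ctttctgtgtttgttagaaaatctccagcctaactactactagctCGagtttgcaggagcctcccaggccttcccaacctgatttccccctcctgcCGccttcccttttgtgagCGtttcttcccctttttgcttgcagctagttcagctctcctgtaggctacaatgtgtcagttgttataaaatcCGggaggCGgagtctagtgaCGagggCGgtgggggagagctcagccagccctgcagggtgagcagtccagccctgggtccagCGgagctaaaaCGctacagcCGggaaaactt
The motif TATAAA occurred on either strand in the windows of *Slit2* and *Srgap3* among these genes, and in 13.6% of all windows.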

How the data were processed

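RNA of sorted LPs was compared between 3 *Robo1+/+* and 3 *Robo1−/−* libraries, grouped by the sample labels. The deposited values are a normalised signal per gene: per the study's methods, the authors cut reads to 75 bases, took out repeat elements (bowtie2), aligned what was left with TopHat (genome NCBI37/mm9) and normalised counts per gene with DESeq2. The submitters' processing notes list Bowtie, TopHat, SAMtools and DESeq. The counting tool, its use of strand and its rule for reads with several matches are not given in the sources used here. Whole reads were recovered from 100% of the values, within the rounding to the second decimal. The main test was limma (version 3.58.1, R 4.3.3) with the empirical Bayes trend on log2(value + 1) for 13692 genes kept by filterByExpr of edgeR (version 4.0.16). At an adjusted p of 0.05 it called 0 genes, edgeR's quasi-likelihood test on the recovered reads called 0, and DESeq2 (version 1.42.0) called 1. The GC correction subtracted a lowess curve on transcript GC content from each library. Fitting and GC correction were tested on simulated data, whose spread was taken from the libraries other than gh18. Only genes with higher counts were changed in them, so this test does not cover genes with few reads. Lengths, GC content and positions come from GENCODE release M1, in which 16472 clusters (88.9%) were found by symbol. The genes and lists were chosen, from general knowledge, with earlier results of these data known. Beside the 10 genes, the text names pathway genes with an unadjusted p under 0.05 or the 2 highest mean values per role, the most abundant marker of each list and the 5 genes most like *Robo1*; others are defining markers or are marked. The summary of 1 of the 5 pathway roles is not reported here. Alternatives were pseudocounts of 0.5 and 5, no filter, a mean of at least 10, TMM scaling, DESeq2, edgeR, the GC correction, exon-union lengths and each library left out.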

Additional observations from a re-analysis of the deposited data

How the results depend on the processing

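*Robo1* was lower in *Robo1−/−* under all 14 alternatives, with log2 fold changes between −1.71 (without *Robo1+/+* gh03) and −1.20 (without *Robo1−/−* gh06). Its adjusted p lay between 0.55 and 1.00 under them, and its unadjusted p between 0.0003 and 0.030. None of the tested family genes passed an adjusted p of 0.05 under any alternative. Over all genes, DESeq2 called 1 (*RP23-282C23.3*, named after its values were seen) where limma and edgeR called 0. At an unadjusted p under 0.05, limma counted 231 genes, edgeR 221, DESeq2 335 and limma with no filter 415. With a library left out, limma counted between 117 (without gh15) and 879 (without gh06), with 579 without gh18, 130 without gh03 and 131 without gh12; the cause was not tested.

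Of 97 log2 fold changes of the 7 genes under alternatives, 92 kept their direction. The exceptions were *Robo2*, at 0.31 without gh09 and 0.05 without gh06, and *Srgap2*, at −0.020 with the GC correction, −0.019 without gh03 and −0.030 without gh18. With a library left out, *Robo2* ranged from −0.96 to 0.31 and *Srgap2* from −0.030 to 0.12; the cause was not tested. With a mean count of at least 10 required, *Slit3* was not tested. Of the 7 genes, those whose genotypes did not overlap numbered 1 to 2 lower and 0 to 1 higher with a library left out. *Slit3* joined without gh15 and *Srgap3* without gh03. Leaving out a library can only add genes to these counts. The share of all tested genes is not given for these comparisons, so nothing is concluded from them. With the union of exons as length, the summed level of *Robo2* and *Robo3* in *Robo1−/−* was 0.646 normalised reads per kilobase instead of 1.31, because the union is longer (16.5 kb against 8.12 kb for *Robo2*). No paired analysis was made, because the labels name littermates but no library pairs. Depth limits the statements on *Slit1* and *Robo3*, at 1 read or none, and on *Slit3* and *Robo2*, at 1 to 48 reads per library.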
